A study of Mus musculus with 8 samples.

Results

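The 54 genes described here are the type I interferon genes that were listed for cardiac mesenchymal stromal cells (cMSCs), namely receptors, nucleic acid sensors, transcription factors and antiviral effectors. Of the 37008 gene or transcript names with a probe on the array, 53 of the 54 had at least 1 probe (Ifitm2 had none), and 51 passed the filter on dim probes. The members are set by gene name, and the list was chosen with earlier results of these data known. RNA came from 8 pools of cMSCs, native cells sorted from digested ventricles of male C57BL/6 mice as positive for Sca-1 and PDGFRα and negative for CD31 and CD45, with 1 Agilent array of 1 colour (Cy3) for each pool. The 4 young pools (replicates 2, 3, 4 and 5) came from mice of 5 months and the 4 aged pools (replicates 1, 2, 3 and 4) from mice of 20 months, with no treatment, no induced allele and 3 mice to a pool by the series' design. The label code of aged replicate 4 can also be read as 2 mice. The study used both a commercial C57BL/6 line and a reporter line with a tagged Cx3cr1 allele, and the sources used here do not say which of them gave these pools.

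Interferons of type I bind the receptor of Ifnar1 and Ifnar2, and the kinases on it phosphorylate Stat2, which acts with Irf9 in the complex ISGF3. That complex binds the interferon-stimulated response element (ISRE) in promoters of effector genes, whose proteins block viral entry, translation or replication. Cytosolic sensors of RNA (Ddx58, Ifih1) and of DNA (Mb21d1, with its adaptor Tmem173) lie upstream and induce interferon through Irf3 and Irf7. Dhx58, which tunes the RNA sensors, and Zbp1, a sensor of Z-form nucleic acids, are grouped with them here. Stromal cells of many tissues carry this pathway and keep a low tonic level of its target genes.

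The level of a gene is the log2 of its processed signal minus the log2 of the signal at the 75th percentile of all spots on that array, so 0 is the brightness at that percentile. Levels are compared between pools and not between genes. A difference is the mean of the aged pools minus that of the young pools on the same scale. A gene is said to have risen when the p of limma's test, adjusted over all 20076 genes tested by the Benjamini-Hochberg method, was under 0.05.

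Of the 51 members tested, 15 rose in aged cMSCs and 0 fell. The 15 were the sensors Dhx58, Zbp1 and Tmem173, the transcription factor Irf7, and the effectors Ifitm1, Bst2, Oas1a, Oasl1, Mx1, Rsad2, Usp18, Trim30a, Ifi44, Rtp4 and Samd9l, with differences from 0.51 (Samd9l) to 2.15 (Ifitm1). Among all genes tested, limma called 476 higher (2.37%) and 162 lower (0.807%), so the members' 15 of 51 stood beside a background of 2.37%. The median difference was 0.40 over the members and 0.0017 over all genes tested. Of the 51 members, 48 had a positive difference, beside 50.4% of all genes. No member was lower even at an unadjusted p under 0.05, by limma or by the methods' t-test, while 33 were higher at that level. No share of all genes is given for that level, so these counts have no background to be judged by. The study's own threshold was an unadjusted p of at most 0.01 and a log2 fold change over 0.5. At that threshold 21 members were higher and 0 lower, beside 3.23% and 1.27% of all genes. For 30 members every aged pool lay above every young pool, beside 6.68% of all genes, and for 0 members did every aged pool lie below, beside 4.07%.

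**Figure D1:**
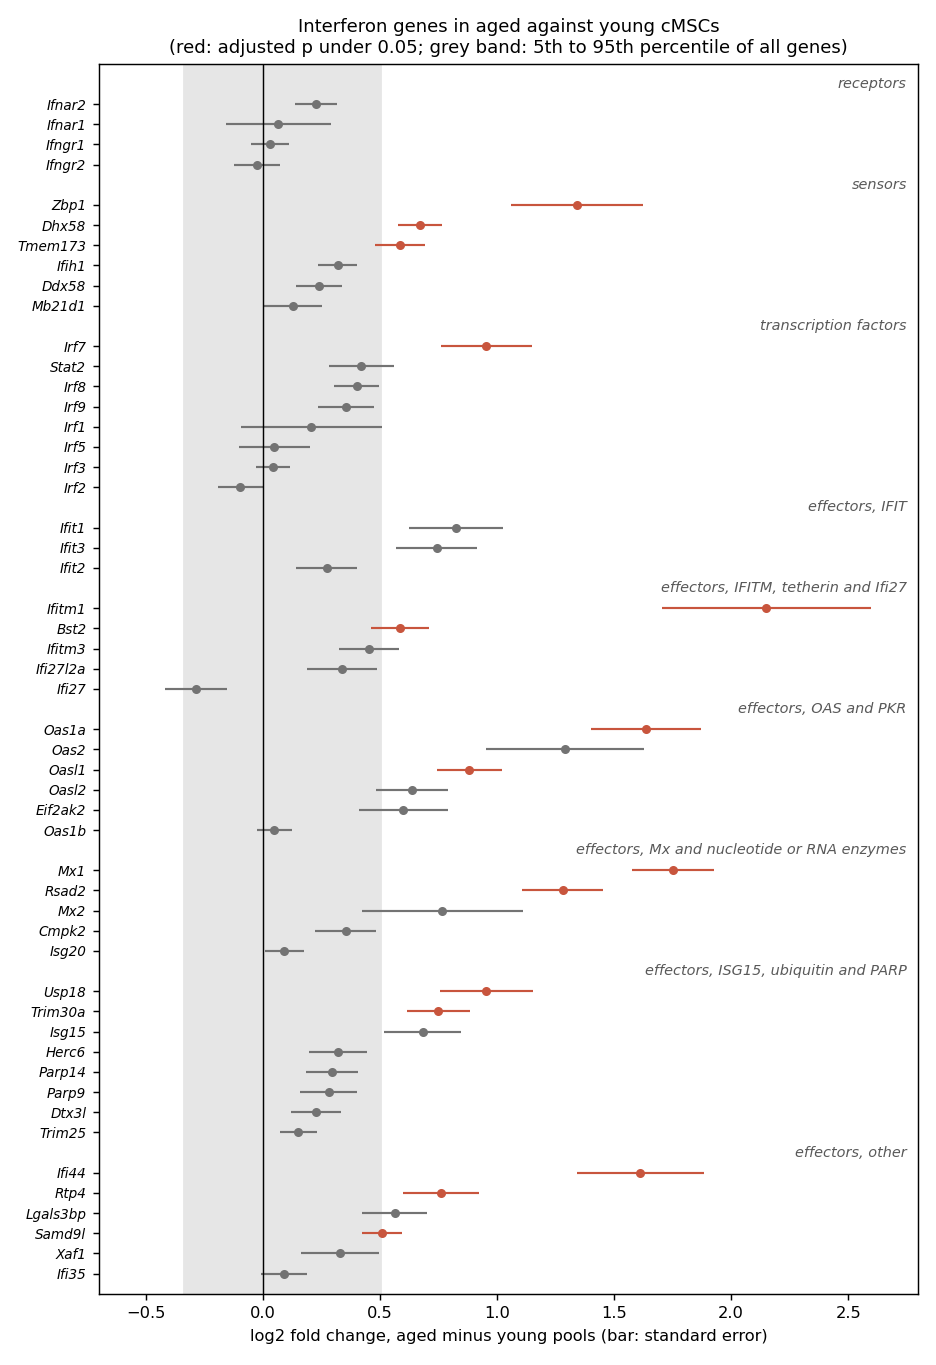
Difference of each of the 51 members tested (aged minus young pools, log2, with its standard error as a bar), grouped by role. The 15 members that rose are red, and the grey band runs from -0.34 to 0.50, the 5th to 95th percentile of all genes tested. The receptors lie within the band and the effectors Ifitm1, Mx1, Oas1a and Ifi44 lie above 1.6.

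The share that rose differed in count between the roles, and no test of that difference was made. It was 0 of 4 receptors (median difference 0.049), 3 of 6 sensors (0.45), 1 of 8 transcription factors (0.28) and 11 of 33 effectors (0.59). Within the effectors the counts were 0 of 3 IFIT genes (median 0.74), 2 of 5 of the IFITM, tetherin and Ifi27 group (0.45), 2 of 6 of the OAS and PKR group (0.76), 2 of 5 Mx genes and nucleotide or RNA enzymes (0.77), 2 of 8 of the ISG15, ubiquitin and PARP group (0.31) and 3 of 6 other effectors (0.54).

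The ISRE is shown first for the promoters that carry it, since it is the sequence through which the effectors are known to be induced. It was searched as GAAA followed by any 2 bases and another GAAA, on both strands (on the other strand TTTC, any 2 bases and TTTC), in the RefSeq promoters of the build GRCm38.p6, 250 bases before to 50 after each start. Of the members, 41 have such a promoter in the table, and 16 of these genes (39.0%) held a match, beside 1079 of 27025 genes in the table (3.99%) and 1131 of its 32851 windows (3.44%). Matches were found for 4 of the 9 members that rose and have a promoter there, and for 9 of 29 members that were tested and not called. In 12 of the 16 genes a match lay before the start site, and in the other 4 (Ddx58, Eif2ak2, Ifih1 and Ifitm3) after it. The 60 bases around the matches follow for the 4 members that rose (Oas1a, Bst2, Rsad2 and Trim30a) and for the well-known targets Isg15, Ifit1 and Ifit3, which did not pass the test. Each is written 5′ to 3′ on the strand of its gene, with bases that match the ISRE in either direction in capitals.
Oas1a: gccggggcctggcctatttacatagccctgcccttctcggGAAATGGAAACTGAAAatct
Bst2: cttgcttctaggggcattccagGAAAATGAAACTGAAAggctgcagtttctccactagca
Rsad2: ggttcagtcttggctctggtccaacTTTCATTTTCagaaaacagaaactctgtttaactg
Trim30a: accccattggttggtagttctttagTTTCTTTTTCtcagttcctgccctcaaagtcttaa
Isg15: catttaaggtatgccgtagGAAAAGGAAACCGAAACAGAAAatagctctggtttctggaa
Ifit1: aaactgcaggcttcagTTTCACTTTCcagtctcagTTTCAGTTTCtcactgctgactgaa
Ifit3: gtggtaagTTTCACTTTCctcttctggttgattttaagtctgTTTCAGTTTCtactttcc
These stretches lie at chr5:120907526-120907585 (minus strand) for Oas1a, chr8:71537565-71537624 (minus strand) for Bst2, chr12:26456538-26456597 (minus strand) for Rsad2, chr7:104465195-104465254 (minus strand) for Trim30a, chr4:156200856-156200915 (minus strand) for Isg15, chr19:34640769-34640828 (plus strand) for Ifit1 and chr19:34583365-34583424 (plus strand) for Ifit3. The first match began 20 bases before the annotated start in Oas1a, 130 in Bst2, 120 in Rsad2, 36 in Trim30a, 78 in Isg15, 104 in Ifit1 and 156 in Ifit3. Oas1a and Bst2 each hold 2 matches that overlap, Isg15 holds 3 that overlap, and Ifit1 and Ifit3 hold 2 apart from each other. A match is a description of letters, and whether a factor binds there was not measured. The promoters of Dhx58, Zbp1, Tmem173, Ifi27, Ifi27l2a, Oas1b, Oas2, Mx1, Mx2, Usp18, Parp9, Parp14 and Rtp4 were not analysed here.

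**Figure D2:**
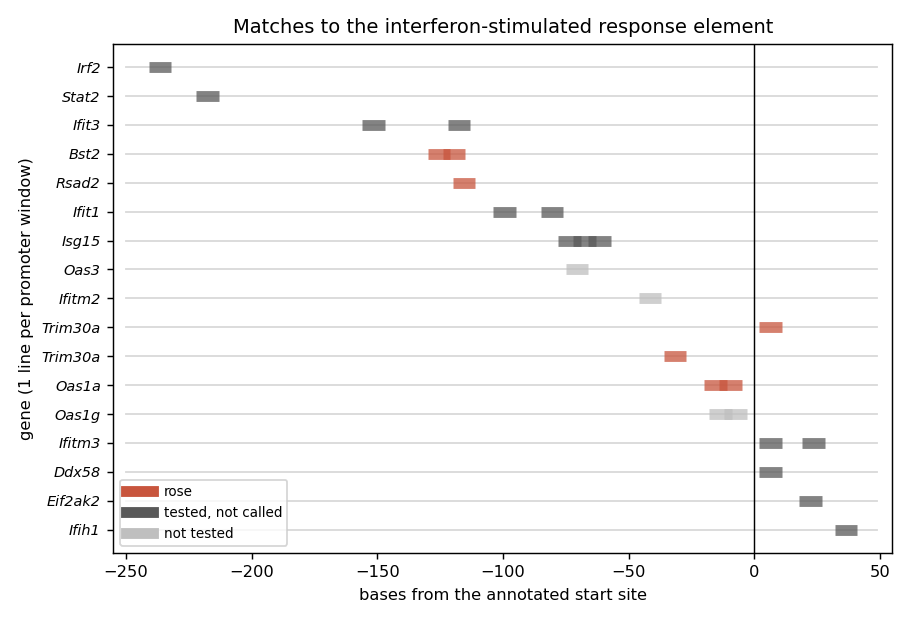
Position of each ISRE match in the promoter windows of the members, in bases from the annotated start site (vertical line), with 1 line per window and colours for members that rose, that were tested and not called, and that were not tested. Most matches lie before the start site, and the matches of Oas1a and Oas1g lie at nearly the same place, just before it.

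Among the sensors, 3 rose and all 6 had a positive difference. Dhx58 encodes LGP2, a helicase that tunes the response of the other RNA sensors, and its level was -0.99, -0.97, -0.88 and -0.96 in young replicates 2, 3, 4 and 5 and -0.34, -0.25, -0.46 and -0.073 in aged replicates 1, 2, 3 and 4. The young pools lay close together and every aged pool lay above them, and Dhx58 rose by 0.67 (standard error 0.094, adjusted p = 0.00782). Zbp1, a sensor of Z-form nucleic acids that can start necroptosis, had levels of -1.39, -1.20, -1.35 and -2.03 in the young and -0.44, -0.38, -0.44 and 0.66 in the aged pools, in the same order of replicates. Aged replicate 4 stood about 1 log2 unit above the other aged pools, and the difference of Zbp1 was 1.34 (standard error 0.28, adjusted p = 0.0417). Tmem173 encodes STING, the adaptor that answers the cyclic dinucleotide made by cGAS. Its levels were 1.74, 1.67, 1.88 and 1.40 in the young and 2.17, 2.28, 2.29 and 2.30 in the aged pools. The aged pools of Tmem173 lay within 0.14 of each other, above every young pool, and it rose by 0.59 (standard error 0.11, adjusted p = 0.0251). Dhx58 kept its call on leaving out any 1 pool. Zbp1 kept it without aged replicate 4 (adjusted p = 0.0341) and lost it without any other pool (0.0707 to 0.0911). Tmem173 kept it without young replicate 4 or 5 and lost it without any other pool (0.0559 to 0.079).

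The 2 RNA sensors that start the signal did not pass the test. Ifih1 encodes MDA5, which binds long double-stranded RNA, and its levels were 1.18, 1.21, 1.28 and 1.24 in the young and 1.50, 1.61, 1.38 and 1.68 in the aged pools. The groups of Ifih1 did not overlap, and its difference was 0.32 (standard error 0.084, adjusted p = 0.0917). Ddx58 encodes RIG-I, which binds RNA ends with a triphosphate, and its levels were 2.19, 2.19, 2.28 and 1.93 and 2.30, 2.45, 2.29 and 2.51. The groups of Ddx58 did not overlap on this probe, with a difference of 0.24 (standard error 0.1, adjusted p = 0.32), and 3 further probes of the gene gave differences of -0.036 to 0.16. Mb21d1 encodes cGAS, the DNA sensor upstream of STING, and had a difference of 0.13 (standard error 0.13, adjusted p = 0.774) with overlapping groups.

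Of the 8 transcription factors, only Irf7 passed the test. Irf7 is the factor known for amplifying type I interferon, and its levels were 3.93, 4.05, 3.86 and 3.50 in the young and 4.52, 4.80, 4.53 and 5.32 in the aged pools. Every aged pool lay above every young pool, aged replicate 4 being the highest of the 8, and Irf7 rose by 0.95 (standard error 0.20, adjusted p = 0.0389). A further Irf7 probe, over an exon junction, gave a difference of 0.98. Irf7 kept its call without aged replicate 4 (adjusted p = 0.0432) and lost it without any other pool (0.0556 to 0.0943).

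Stat2 and Irf9 had smaller differences and did not pass. Stat2 had levels of 2.50, 2.38, 2.56 and 2.18 in the young and 2.53, 2.91, 2.75 and 3.11 in the aged pools, which overlapped, and its difference was 0.42 (standard error 0.14, adjusted p = 0.182). For Irf9, the DNA-binding partner, the difference was 0.36 (standard error 0.12, adjusted p = 0.188). Irf8, a factor of macrophages and dendritic cells, had levels of 1.29, 1.32, 1.46 and 1.49 in the young and 1.69, 1.73, 1.73 and 2.01 in the aged pools. The groups of Irf8 did not overlap, and its difference was 0.40 (standard error 0.097, adjusted p = 0.0689). The other 4 factors, Irf1, Irf2, Irf3 and Irf5, had differences from -0.097 (Irf2) to 0.21 (Irf1), with overlapping groups.

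The receptors did not pass. Ifnar2, the chain of the type I receptor that binds interferon tightly, had levels of 3.14, 3.04, 3.03 and 2.86 in the young and 3.21, 3.21, 3.16 and 3.40 in the aged pools, and its difference was 0.23 (standard error 0.09, adjusted p = 0.282) without overlap of the groups. Ifnar1, the other chain, had levels of 1.53, 1.94, 1.54 and 2.28 in the young and 1.97, 1.42, 1.88 and 2.29 in the aged pools. The groups of Ifnar1 overlapped fully, and its difference of 0.066 (standard error 0.22, adjusted p = 0.95) turned negative without young replicate 2, young replicate 4 or aged replicate 4. Ifngr1 and Ifngr2, the chains of the receptor for interferon gamma, had differences of 0.031 and -0.025.

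**Figure D3:**
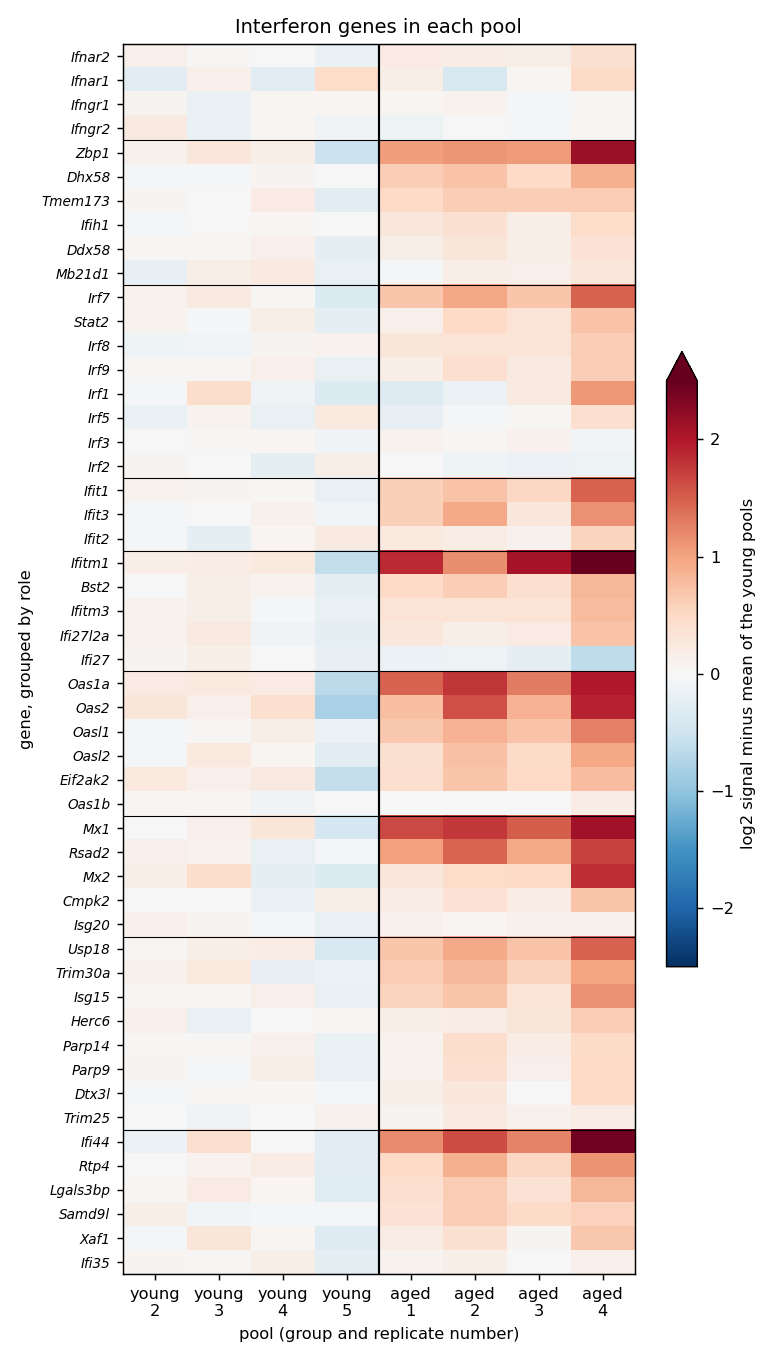
Level of each of the 51 members in each of the 8 pools, as the log2 signal minus the mean of the young pools (red higher, blue lower), with black lines between the roles. The scale ends at 2.5 and the value of Ifitm1 in aged replicate 4 lies beyond it. Aged replicate 4 is the reddest column and young replicate 5 the bluest.

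The largest difference among the members was that of 1 effector at the membrane, Ifitm1. The median of its group, the 5 tested genes of the IFITM, tetherin and Ifi27 group, was 0.45. Ifitm1 encodes a membrane protein that hinders entry of enveloped viruses, and its levels were 1.07, 1.09, 1.14 and 0.31 in young replicates 2, 3, 4 and 5 and 2.77, 2.05, 2.98 and 4.40 in aged replicates 1, 2, 3 and 4. The aged pools spread over more than 2 log2 units, all above the young pools, and Ifitm1 rose by 2.15 (standard error 0.45, adjusted p = 0.041). Bst2 encodes tetherin, which holds budding virions at the cell surface, and its levels were 3.52, 3.66, 3.58 and 3.25 in the young and 3.996, 4.12, 3.90 and 4.33 in the aged pools. Every aged pool lay above every young pool, and Bst2 rose by 0.59 (standard error 0.12, adjusted p = 0.0431). Ifitm1 kept its call without aged replicate 2 or 4 and lost it without any other pool (adjusted p 0.0824 to 0.102), and Bst2 lost it on leaving out any 1 pool (0.0635 to 0.0991). Within the first row of the slide (young replicates 3 and 5, aged replicates 1 and 4) the difference of Ifitm1 was 2.89 and within the second row 1.41.

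The other genes of that group did not pass. Ifitm3, a relative of Ifitm1 in late endosomes, had levels of 6.40, 6.47, 6.26 and 6.13 in the young and 6.66, 6.66, 6.65 and 7.10 in the aged pools, without overlap, and its difference was 0.45 (standard error 0.13, adjusted p = 0.115). Ifi27l2a had 7.52, 7.65, 7.35 and 7.20 and 7.70, 7.58, 7.63 and 8.15, with overlapping groups and a difference of 0.34 (standard error 0.15, adjusted p = 0.36). Ifi27 had the lowest difference of all members, -0.29 (standard error 0.13, adjusted p = 0.392), with overlapping groups. Probes of Ifitm genes can also read related copies of the family.

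Within the OAS and PKR group, Oas1a and Oasl1 rose. Oas1a encodes an oligoadenylate synthetase, which makes the short RNA messenger of the antiviral response, and its levels were 0.97, 1.03, 0.99 and 0.12 in the young and 2.25, 2.56, 2.07 and 2.77 in the aged pools. Young replicate 5 lay about 0.9 below the other young pools, every aged pool lay above all of them, and Oas1a rose by 1.64 (standard error 0.23, adjusted p = 0.00845). Oasl1 encodes a relative without synthetase activity that is known to hold back translation of Irf7, and its levels were -0.28, -0.22, -0.11 and -0.40 in the young and 0.42, 0.61, 0.47 and 1.01 in the aged pools. The groups of Oasl1 did not overlap, and it rose by 0.88 (standard error 0.14, adjusted p = 0.0121). Both calls held on leaving out any 1 pool. A further, dimmer Oasl1 probe gave a difference of 0.60, and the call of Oasl1 was lost when the probes of a gene were averaged (adjusted p = 0.125).

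Oas2 and Oasl2 had the largest differences of this group that did not pass. Oas2 had levels of 0.40, 0.23, 0.50 and -0.71 in the young and 0.86, 1.71, 0.98 and 2.03 in the aged pools, and the wide spread within both groups left its difference at 1.29 (standard error 0.34, adjusted p = 0.0899). Oasl2 had levels of 2.27, 2.56, 2.36 and 2.05 in the young and 2.69, 3.04, 2.80 and 3.27 in the aged pools, without overlap, and its difference was 0.64 (standard error 0.15, adjusted p = 0.0686). Eif2ak2, which encodes the translation-blocking kinase PKR, had a difference of 0.60 and Oas1b one of 0.049. Oas1g was well above background on 1 young and 2 aged arrays and Oas3 on 0 arrays, so neither was tested. The genes of the Oas1 cluster are nearly identical copies, so the values of Oas1a and Oas1g are uncertain as to the copy.

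Among the Mx genes and the nucleotide or RNA enzymes, Mx1 and Rsad2 rose. Mx1 encodes a dynamin-like GTPase against influenza virus, a gene that is truncated by a deletion in most laboratory strains, and its levels were -3.70, -3.57, -3.39 and -4.11 in the young and -2.04, -1.93, -2.18 and -1.60 in the aged pools. The groups of Mx1 lay more than 1 log2 unit apart, and it rose by 1.75 (standard error 0.18, adjusted p = 0.00193), the smallest adjusted p among the members. Rsad2 encodes viperin, which makes a chain-terminating nucleotide, and its levels were -1.49, -1.54, -1.82 and -1.65 in the young and -0.60, -0.17, -0.68 and 0.066 in the aged pools. Rsad2 rose by 1.28 (standard error 0.17, adjusted p = 0.00628), and a further probe over an exon junction gave 1.12. Both calls held on leaving out any 1 pool. With normexp background correction, which compresses dim signals, the difference of Mx1 was 0.92 with the call kept.

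Mx2, Cmpk2 and Isg20 did not pass. Mx2 had levels of 0.13, 0.44, -0.24 and -0.36 in the young and 0.25, 0.46, 0.50 and 1.83 in the aged pools, where aged replicate 4 alone lay above all young pools by more than 1 log2 unit, and its difference was 0.77 (standard error 0.34, adjusted p = 0.366). Cmpk2, a mitochondrial nucleotide kinase that neighbours Rsad2, had levels of 0.43, 0.45, 0.28 and 0.61 in the young and 0.63, 0.80, 0.62 and 1.14 in the aged pools. The groups of Cmpk2 did not overlap, and its difference was 0.35 (standard error 0.13, adjusted p = 0.243). Isg20, an exonuclease, had a difference of 0.092. Without aged replicate 4 the median difference of this group of 5 genes was 0.41, against 0.77 with all pools.

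In the ISG15, ubiquitin and PARP group, Usp18 and Trim30a rose. Usp18 encodes the protease that removes ISG15 from proteins and dampens signalling at the type I receptor, and its levels were 0.26, 0.40, 0.42 and -0.16 in the young and 0.91, 1.18, 0.94 and 1.69 in the aged pools. The groups of Usp18 did not overlap, and it rose by 0.96 (standard error 0.20, adjusted p = 0.041). Trim30a encodes a ubiquitin ligase of the tripartite motif family, and its levels were -0.47, -0.33, -0.77 and -0.72 in the young and 0.07, 0.24, -0.014 and 0.42 in the aged pools. Trim30a rose by 0.75 (standard error 0.13, adjusted p = 0.0224), and its 2 further probes gave 0.71 and 0.83. Usp18 lost its call on leaving out any 1 pool (adjusted p 0.0529 to 0.0919), and Trim30a lost it without young replicate 4 (0.0629), young replicate 5 (0.0607) or aged replicate 2 (0.0586).

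Isg15, the ubiquitin-like modifier itself, had levels of 2.82, 2.82, 2.91 and 2.60 in the young and 3.33, 3.49, 3.13 and 3.93 in the aged pools. Its groups did not overlap, and its difference was 0.68 (standard error 0.16, adjusted p = 0.0686). Herc6, the main ligase for ISG15 in mice, had levels of -2.16, -2.45, -2.26 and -2.23 in the young and -2.12, -2.09, -1.98 and -1.64 in the aged pools. The groups of Herc6 did not overlap, and its difference was 0.32 (standard error 0.12, adjusted p = 0.262). Trim25, Dtx3l, Parp9 and Parp14 had differences of 0.15 to 0.29 that did not pass.

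The 3 IFIT genes, whose proteins bind foreign RNA and halt its translation, did not pass the test. Ifit1 had levels of -0.17, -0.19, -0.23 and -0.45 in the young and 0.34, 0.45, 0.27 and 1.21 in the aged pools. The aged pools of Ifit1 all lay above the young ones, with aged replicate 4 the highest, and its difference was 0.83 (standard error 0.20, adjusted p = 0.0689). Ifit1 passed without aged replicate 4, where the difference was 0.61 (adjusted p = 0.0249). Ifit3 had levels of 1.59, 1.62, 1.74 and 1.57 in the young and 2.23, 2.58, 1.92 and 2.77 in the aged pools. The groups of Ifit3 did not overlap, its difference was 0.74 (standard error 0.17, adjusted p = 0.0602), and it passed without aged replicate 3 (adjusted p = 0.0216). Ifit2 had a difference of 0.27 with overlapping groups. The probe of Ifit3 may also read its near copy Ifit3b, which had a difference of 0.60.

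Of the 6 other effectors, Ifi44, Rtp4 and Samd9l rose. Ifi44, a cytoplasmic protein of the interferon response, had levels of -3.21, -2.67, -3.06 and -3.32 in the young and -1.88, -1.43, -1.83 and -0.66 in the aged pools. The groups of Ifi44 did not overlap, and it rose by 1.61 (standard error 0.27, adjusted p = 0.0177), a difference that was 1.05 with normexp background correction. Rtp4, a chaperone of receptor transport, had levels of 2.58, 2.68, 2.77 and 2.34 in the young and 3.10, 3.48, 3.11 and 3.73 in the aged pools. Every aged pool lay above the young pools, and Rtp4 rose by 0.76 (standard error 0.16, adjusted p = 0.0451). Samd9l, a restriction factor of poxviruses, had levels of 1.99, 1.78, 1.82 and 1.81 in the young and 2.21, 2.46, 2.33 and 2.42 in the aged pools. Samd9l had the smallest difference among the genes that rose, 0.51 (standard error 0.086, adjusted p = 0.0179), with little spread in either group. Rtp4 lost its call on leaving out any 1 pool (adjusted p 0.0564 to 0.104). Ifi44 did not pass without young replicates 2, 4 or 5 in turn (0.0523, 0.0529 and 0.0536), nor Samd9l without young replicate 3 (0.0612), young replicate 4 (0.0558) or aged replicate 3 (0.0568).

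Lgals3bp and Xaf1 had the largest differences of the other effectors that did not pass. Lgals3bp, a secreted galectin-binding glycoprotein, had levels of 5.12, 5.27, 5.12 and 4.77 in the young and 5.49, 5.71, 5.44 and 5.89 in the aged pools. Its groups did not overlap, its difference was 0.56 (standard error 0.14, adjusted p = 0.0739), and a further probe of the gene gave -0.015. Xaf1, an inhibitor of antiapoptotic proteins, had levels of 1.37, 1.69, 1.45 and 1.07 in the young and 1.57, 1.77, 1.47 and 2.07 in the aged pools, which overlapped, and a difference of 0.33 (standard error 0.17, adjusted p = 0.443). Ifi35 had a difference of 0.091.

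**Figure D4:**
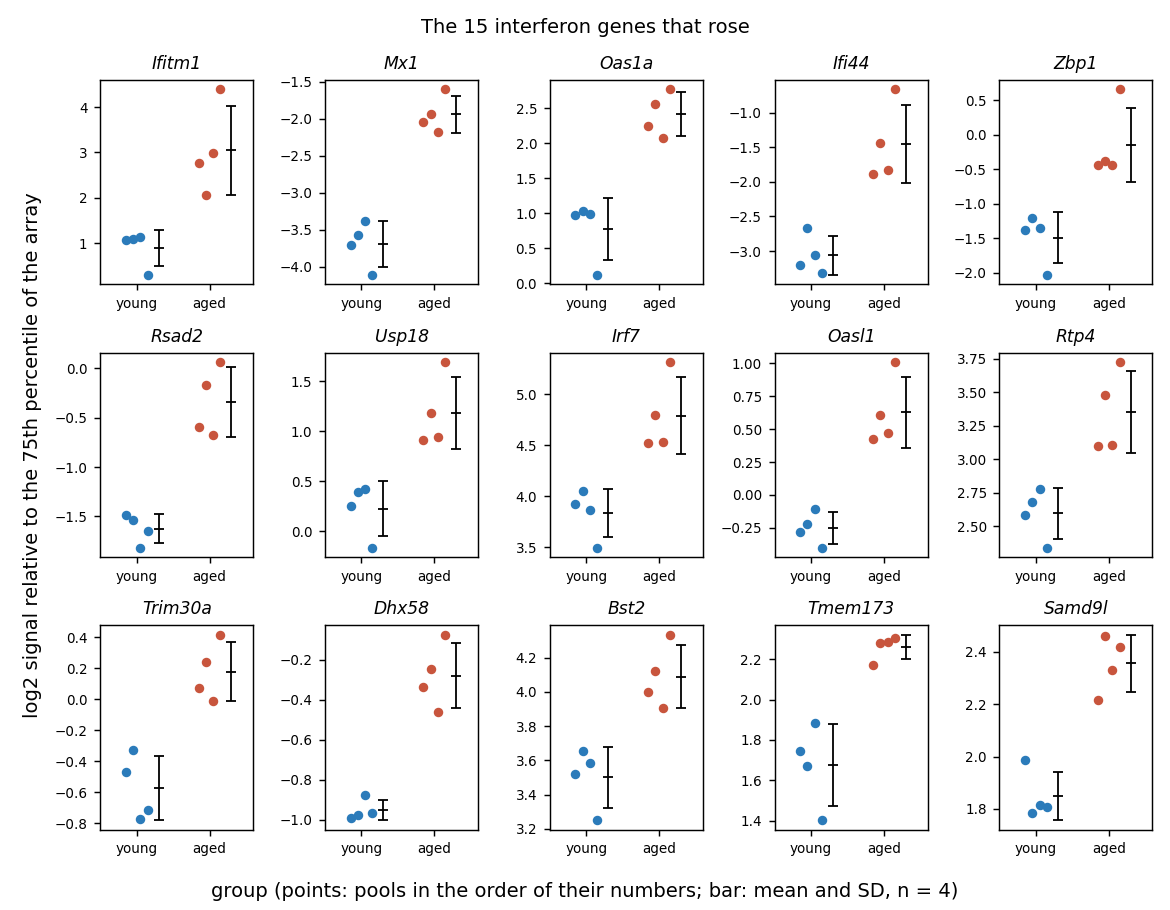
Level of the 15 members that rose in each pool (points, in the order of their replicate numbers) with the mean and SD of each group (n = 4), on the log2 scale defined above. The scale differs between panels. In every panel the 4 aged pools lie above the 4 young pools.

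The probes of the 15 genes that rose lie, on the mouse build mm9 of the array files, at chr11:100556271-100556330 (Dhx58), chr2:173039307-173039366 (Zbp1), chr7:148449104-148449163 (Irf7), chr7:148155659-148155718 (Ifitm1), chr8:74058603-74058662 (Bst2), chr5:121346735-121346794 (Oas1a), chr5:115387861-115387920 (Oasl1), chr16:97668644-97668703 (Mx1), chr12:27127859-27127918 (Rsad2), chr6:121220874-121220933 (Usp18), chr7:111560170-111560747 (Trim30a, over a junction), chr3:151394035-151394094 (Ifi44), chr16:23613668-23613727 (Rtp4) and chr6:3322520-3322579 (Samd9l), and that of Tmem173 on chromosome 18. Oas1a and Oasl1 lie on chromosome 5, Mx1 and Rtp4 on chromosome 16, and Ifitm1, Irf7 and Trim30a on chromosome 7. The members have 96 probes in all, of which 86 were kept and 28 members had more than 1. Of the 35 further kept probes, 28 gave a difference of the same sign as the probe that stood for the gene, and the 7 others belong to genes that did not pass. The 5 genes that rose and have further kept probes (Zbp1, Irf7, Oasl1, Rsad2 and Trim30a) have 6 of them, all with a positive difference, and 3 of the 6 passed when each probe was tested.

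The pools of 1 age were not alike. Aged replicate 4 held the highest level of the 8 pools in 42 of the 51 members and in 14 of the 15 that rose (Samd9l, the exception, was highest in aged replicate 2). Young replicate 5 held the lowest level in 33 of 51 members and in 11 of the 15. No share of all genes is given for these ranks, so they are not shown to be particular to the members. Averaged over the 51 members, the level minus the mean of the young pools was 0.039, 0.086, 0.047 and -0.17 in young replicates 2, 3, 4 and 5, and 0.39, 0.53, 0.40 and 0.86 in aged replicates 1, 2, 3 and 4. Each aged pool thus lay above every young pool in this average, and aged replicate 4 stood farthest out. The SD of the aged pools exceeded that of the young pools in 37 of 51 members (72.5%), beside 42.0% of all genes. Without aged replicate 4 and young replicate 5, a setting chosen after the values were seen, 11 members rose, 10 of them among the 15, and Ifit1 joined them. Tmem173, Bst2, Trim30a, Rtp4 and Samd9l did not pass there (adjusted p 0.0564 to 0.107), and the difference of Zbp1 was 0.89.

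**Figure D5:**
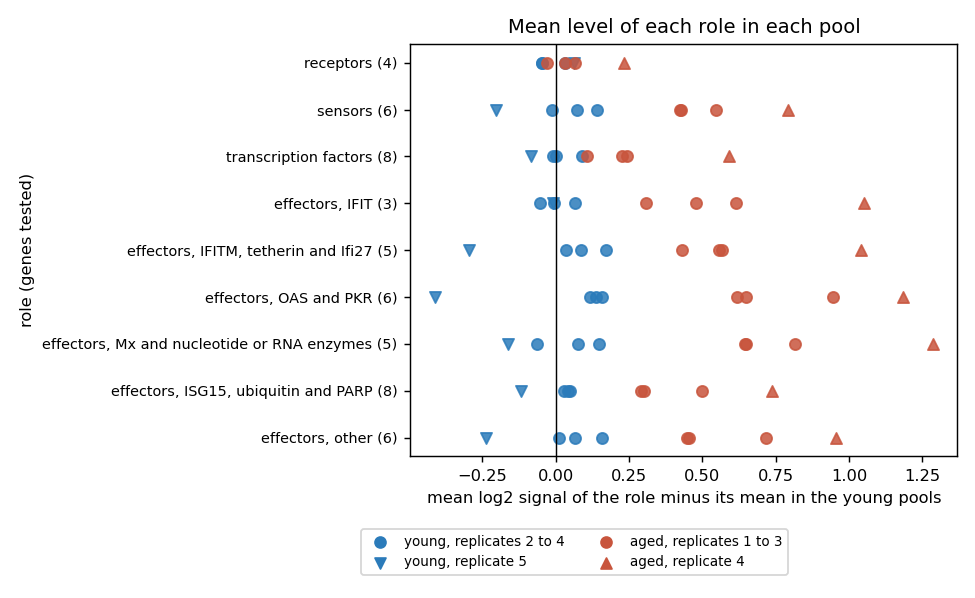
Mean level of the members of each role in each pool, as log2 signal minus the mean of the young pools, for young (blue) and aged (red) pools. Triangles mark young replicate 5 and aged replicate 4. The receptors show overlapping groups, and in each effector group aged replicate 4 lies farthest to the right, between 0.74 and 1.29.

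The 8 arrays were on 1 slide in 2 rows, with 2 young and 2 aged pools in each row. Both pools just named were in the first row. The median difference of the members was 0.50 within the first row and 0.32 within the second, 45 of 51 members having the larger difference in the first. All 15 genes that rose were higher in aged pools within each row, by at least 0.46. That sign was given in advance, since in each of them every aged pool lay above every young pool. With the slide row as a block, 9 members rose, and Zbp1, Irf7, Bst2, Ifitm1, Usp18 and Rtp4 had adjusted p values of 0.0597 to 0.0674. Scaling to the median of each array ended the calls of Tmem173, Bst2, Rtp4 and Samd9l (0.0705 to 0.0996), and that of Zbp1 ended with quantile normalization (0.0521) or the average of its probes (0.122).

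Markers of cMSCs were present in all pools, and those of other cell types moved to different extents. All 11 markers of cMSCs and fibroblasts were tested, of which Pdpn rose and Thy1 fell (median difference -0.044). Of the 11, 8 had a negative difference and 3 a positive one, and 5 were lower and 2 higher at an unadjusted p under 0.05 by limma. Of the sorting markers, Ly6a (Sca-1) had a difference of 0.67 (adjusted p = 0.0515) and Pdgfra one of -0.21 (adjusted p = 0.345). Of 15 markers of macrophages and monocytes, 13 were tested, of which Cd14 rose and 0 fell, with a median of 0.21. The summed linear signal of the 13, relative to the 75th percentile, was 26.8 to 39.4 in the young and 33.0 to 48.7 in the aged pools. Without Itgam, the brightest of them, it was 6.48 to 10.6 and 8.85 to 13.1. Ptprc, which encodes CD45 and defined the cells sorted out, had a difference of 0.068, and Fcgr1 was well above background on 0 arrays.

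Of 10 neutrophil markers 7 were tested and 3 rose, with a median of 0.70. S100a9, a calcium-binding protein abundant in neutrophils, had levels of -1.56, -5.27, -4.29 and -4.33 in the young and 0.37, -0.49, -0.41 and 2.36 in the aged pools, and rose by 4.32 (standard error 0.87, adjusted p = 0.0369), a fold of 20.0. It was dim in the young pools, well above background on 3 of the 4 young arrays, so the size of that fold is uncertain. Ly6g rose by 0.74 (adjusted p = 0.0389) and Camp by 0.70 (adjusted p = 0.034). S100a8, the partner of S100a9, had a difference of 2.48 that did not pass (adjusted p = 0.0935). In each of these 4 genes the groups did not overlap and aged replicate 4 was the highest pool, as it was for most members. Mpo and Elane had differences of 0.20 and 0.053 by limma (adjusted p = 0.858 and 0.909). Their groups overlapped, and a young pool was the highest of the 8 in both. The summed signal of the 7 was 62.3 to 87.1 in the young and 54.5 to 91.7 in the aged pools, most of it from Csf3r, whose difference was -0.069. Without Csf3r the sum was 1.91 to 2.71 in the young and 3.65 to 10.5 in the aged pools, which did not overlap. Cxcr2 and Ngp were well above background on 0 arrays, and Retnlg did not pass the filter either.

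For dendritic cells 5 of 8 markers were tested and 1 rose, Bst2, which is also a member, with a median of 0.090. The summed signals were 219 to 286 in the young and 226 to 272 in the aged pools. Without Siglech, the brightest of them, the sums were 66.1 to 74.0 and 73.3 to 76.9. Itgax was well above background on 0 arrays. Lymphocyte markers gave 3 of 10 tested, 0 rising and a median of 0.020, with summed signals of 1.40 to 2.18 and 1.63 to 1.93, and Cd3g, Ncr1 and Nkg7 were well above background on 0 arrays. Of 8 mesothelial markers 3 were tested, with a median of 0.75. Of these Dmkn, which encodes dermokine, rose by 3.98 (standard error 0.22, adjusted p = 6.28e-05). Its mean level in the young pools was -4.10, and the size of a difference from so dim a level is uncertain. The sum of the 3 was 0.277 to 0.410 in the young and 1.12 to 1.61 in the aged pools. Without Dmkn that sum was 0.216 to 0.359 and 0.193 to 0.722, and Lrrn4 was well above background on 0 arrays. Of 10 cardiomyocyte markers 9 were tested, 7 had a negative difference and Tnni3 and Pln fell, with a median of -0.32 and sums of 8.53 to 10.5 in the young and 6.05 to 8.52 in the aged pools. All 9 mural and smooth muscle markers were tested and 0 passed by limma (3 were lower at an unadjusted p under 0.05), with a median of -0.22 and sums of 29.4 to 33.2 and 26.2 to 30.7. All 10 endothelial markers were tested and 0 passed by limma (1 was lower at that level), with a median of 0.0084 and sums of 13.5 to 17.9 and 12.2 to 19.7. The part of these cells in the members' differences was not tested, and in sorted pools fewer cells of a type and less RNA per cell cannot be told apart.

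The ligands of the pathway showed no call. Of 20 interferon genes 17 had a probe, 7 were tested and 0 rose or fell by limma, and 7 were well above background on 0 arrays, among them Ifnb1 and Ifng. The 7 that were tested had differences of -0.089 to 0.52. The copies of the Ifna family are nearly identical, so a probe of 1 copy can read another.

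Further genes of the pathway were taken from a list of 106 that are not members. Of the 83 tested, 20 rose and 0 fell by limma (2 were lower at an unadjusted p under 0.05), with a median difference of 0.22, beside the same 2.37% of all genes. None of the 12 negative regulators or the 10 adaptors and upstream kinases tested passed, and their medians were 0.10 and 0.070. The 20 were 2 of 4 genes of the p200 family of DNA-binding proteins and 18 of 46 further induced genes. The 8 smallest adjusted p values were those of Plscr2, Gvin1, Phf11b, Slfn2, Nlrc5, Oas1f, Plscr1 and Mndal.

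Plscr2, a phospholipid scramblase gene, rose by 1.44 (standard error 0.12, adjusted p = 0.000786) and its relative Plscr1, known to strengthen the interferon response, by 0.73 (standard error 0.13, adjusted p = 0.0207). Gvin1, a very large interferon-inducible GTPase, rose by 1.65 (standard error 0.18, adjusted p = 0.00261). Phf11b, a gene of a cluster of copies, rose by 1.32 (standard error 0.16, adjusted p = 0.00431). Slfn2, of the schlafen family, rose by 1.55 (standard error 0.24, adjusted p = 0.0114), and Nlrc5, the transactivator of MHC class I genes, by 1.96 (standard error 0.30, adjusted p = 0.0118). Oas1f, a copy in the Oas1 cluster, rose by 1.79 (standard error 0.28, adjusted p = 0.0118), with the same uncertainty as to the copy as Oas1a, and Mndal, of the p200 family, by 0.57 (standard error 0.10, adjusted p = 0.022). Of these 8, the calls of Plscr1 and Mndal were each kept without 3 of the 8 pools and lost without the other 5 (adjusted p up to 0.0589 and 0.0694), and the other 6 calls held on leaving out any 1 pool. The remaining 12 that rose included Ifi204, Ifi47, Oas1c, Phf11a, Phf11d, Slfn5, Slfn8, Slfn9, Sp100, Apol9a and Apol9b, with differences of 0.43 (Sp100) to 1.50 (Ifi47).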

How the data were processed

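Per the labels and file headers, Agilent Feature Extraction 10.10.1.1 gave the deposited scanner files, whose processed signals are background-subtracted intensities on a linear scale. The authors also deposited log2 values that they had quantile-normalized, and the submitters' processing notes name limma. Here control and outlier spots were left out, and each array was scaled to its 75th percentile on the log2 scale. A probe was kept if it was well above background on every array of either group, and of several kept probes the brightest was used. That percentile was 479 to 816, 57.8% to 63.4% of spots were well above background, and no spot was saturated. The small number of arrays limits the precision, and errors reflect differences among pools. Probes were named by accession from a RefSeq table (GRCm38.p6), which gives Mb21d1 as Cgas and Tmem173 as Sting1.

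The groups were compared by limma 3.58.1 under R 4.3.3 (lmFit, eBayes) over 20076 genes, after a trial on simulated data. Promoters were searched with pandas 2.3.3 and numpy 2.4.6. The members, roles and lists were chosen with earlier results of these data known. Values in every pool are given for genes called and for the 2 largest differences of each role not called, and of other pathway genes the 8 smallest adjusted p are named (some genes are not reported here). The alternatives were other scalings (quantile, median), normexp with an offset of 50, other filters and probe rules, blocks, variance options and array weights. Further ones were Student's t-test, the authors' log2 values and fits without a pool. The paper names Student's t-test for comparing 2 groups in general, and limma for the arrays.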

Additional observations from a re-analysis of the deposited data

Results flagged for a closer look

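In each member and group of 4 pools, the gap between the highest or lowest pool and its nearest neighbour was divided by the range of the group and set against Dixon's critical value at the 95% level. Of the 102 groups tested 11 were over it. Chance flags about 1 in 20 groups that are independent. These groups are not, since all members were measured in the same pools and the same pool can stand apart in many of them. The share of all genes over the critical value is not given either. The count of 11 therefore cannot be judged against that rate, and the groups are listed as a description. In the aged pools replicate 4 stood apart as the highest for Zbp1 (share of the range 0.946), Ifitm3 (0.968), Irf8 (0.886), Oas1b (0.856) and Mx2 (0.844). Young replicate 5 stood apart as the lowest young pool for Oas1a (0.942), Ifitm1 (0.917) and Eif2ak2 (0.871). The other 3 were the lowest aged pool of Tmem173, replicate 1 (0.832), the highest young pool of Samd9l, replicate 2 (0.846), and the lowest young pool of Ifngr1, replicate 3 (0.847). In 5 of the 11 the pool that stood apart differed from its neighbour by less than 0.3 on the log2 scale, namely Tmem173 (2.17 against 2.28), Oas1b (4.26 against 4.10), Samd9l (1.99 against 1.82), Ifngr1 (5.37 against 5.58) and Irf8 (2.01 against 1.73).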

How the results depend on the processing

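The count of members that rose was 15 in the main comparison. It was 4 without a filter on dim probes, 9 with the slide row as a block, 7 with the pool code as a block, 4 by the methods' t-test (19 of 51 at the study's threshold) and 0 with the pool number as a replicate block. The other settings with all pools gave 11 to 21, and no setting made a member fall. Leaving out 1 pool gave 6 (without young replicate 4) to 12 members (without aged replicate 4). For the other pathway genes, 20 in the main comparison, the counts were 7 without the filter, 6 with the pool code as a block and 5 by Student's t-test. They were 10 without aged replicate 4 and young replicate 5 together, a setting chosen after the values were seen, and 7 to 15 without 1 pool. The median of the Mx genes and nucleotide or RNA enzymes was 0.30 without those 2 pools and 0.41 to 0.94 without 1 pool. The difference of Ifnar1 ran from -0.069 to 0.22 without 1 pool. The median over all members stayed between 0.28 and 0.50 in 24 alternatives, and the other role medians moved by less than the spread between pools.

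As to pairing, the groups share the numbers 2, 3 and 4, and the deviations of same-numbered pools correlated at 0.18, -0.17 and -0.27. The label codes begin alike in these pairs and also in young replicate 5 and aged replicate 1, which correlated at 0.14. So few correlations cannot decide whether the pools were handled in pairs, and the main comparison is unpaired. With the pool code as a block 7 members rose. With the pool number as a replicate block 0 members and 0 other pathway genes rose, and 14 of all 20076 genes did. In that fit young replicate 5 and aged replicate 1 have no partner and add nothing to the difference. It rests on the numbers 2, 3 and 4 with fewer degrees of freedom, so its count cannot be set down to pairing alone.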

Other observations

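Members of 1 family or 1 locus were set side by side for 6 pairs, which were chosen after their values were seen. The measure was the difference between the changes of the 2 genes within the same pools, tested with a two-sided exact permutation test over all 70 assignments of the 8 pools, for which 0.029 is the smallest possible p. Ifitm1 changed by 1.70 more than Ifitm3 on the log2 scale, Rsad2 by 0.93 more than its neighbour Cmpk2, Oas1a by 1.59 more than Oas1b, Dhx58 by 0.35 more than Ifih1 and Irf7 by 0.91 more than Irf3, each with an exact p = 0.029 (0.034 after adjustment over the 6 pairs). Mx1 changed by 0.99 more than Mx2, with an exact p = 0.057 (0.057 adjusted). Because the pairs were picked for their contrast in these same pools, neither the exact p nor its adjustment over the 6 pairs accounts for that choice. The p values are therefore no evidence of unequal change, and the differences are a description of 2 probes in these pools.

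The gamma-activated site, a promoter element of the response to interferon gamma, was searched as TTC followed by any 3 bases and GAA in the same promoters. It was found for 12 of the 41 members with a promoter (29.3%), beside 2582 of 27025 genes in the table (9.55%), and for 2 of the 9 that rose, Oas1a and Bst2. In Bst2 the letters of that match overlap those of the ISRE. Among all genes tested that have a promoter there, 436 of 11916 (3.66%) held the ISRE, and so did 29 of the 321 that rose (9.03%) and 3 of the 109 that fell (2.75%), the members included.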
